A study of Danio rerio with 26 samples.

Results

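A set of 8 genes of the zebrafish oxidative stress response are described here across oocyte growth, early embryogenesis and a knockdown of znf281b, which encodes a zinc finger protein. They are the transcription factor genes nfe2l2a and nfe2l2b, the sensor genes keap1a and keap1b, and the enzyme genes hmox1a, nqo1, gclc and gclm, 8 of the 32520 gene identifiers in the tables. The identifiers are ENSDARG00000042824 for nfe2l2a, ENSDARG00000089697 for nfe2l2b, ENSDARG00000016132 for keap1a, ENSDARG00000074634 for keap1b, ENSDARG00000027529 for hmox1a, ENSDARG00000010250 for nqo1, ENSDARG00000013095 for gclc and ENSDARG00000018953 for gclm. They were picked by name, and with the knockdown values in view, because nfe2l2b and hmox1a were the most raised of them there. The knockdown values are therefore given as a description with no test, and tests are given only for oocytes and wild-type embryos.

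In vertebrates, the transcription factor Nrf2, encoded in zebrafish by nfe2l2a and nfe2l2b, is held in the cytosol by Keap1, which hands it to a Cul3 ubiquitin ligase for destruction. Oxidants and electrophiles modify Keap1, and Nrf2 then enters the nucleus, pairs with small Maf proteins and binds antioxidant response elements near its target genes. In zebrafish embryos nfe2l2a is the main activator, and nfe2l2b has been described as a paralogue that can act as a negative regulator.

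RNA was sequenced in 26 libraries, all labelled with the strains AB, TF and TLF. Oocytes of stages I, II, III and IV had 2 libraries a stage, each from 50 pooled oocytes, and wild-type whole embryos at 0, 2, 4 and 6 hours post fertilisation (hpf) had 3 libraries a time, each from 20 pooled embryos. The knockdown compared whole 4 hpf embryos labelled znf281b KD with embryos of the same age labelled pCas13d alone (3 libraries each), so that both groups carry the label's Cas13d, an RNA-guided nuclease that cuts RNA. The labels place oocytes of stages I and II at 1 to 2 days post purge. Stage III was at 4 to 7 days and stage IV at 8 to 10 days. For the knockdown, the guide RNAs, the number of embryos and the origin of the replicates are not given in the labels.

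Values are TPM, the share of each library's transcripts that a gene holds after division by transcript length, scaled to a total of 1000000, so the read depth is unknown, no counting interval can be given, and levels below about 1 TPM are the least precise. A share of whole-embryo or oocyte RNA cannot tell fewer cells of a type from less RNA per cell. Within groups, Pearson's r between libraries over genes was 0.975 to 0.995, and no 2 libraries were identical (0 pairs). The labels' tissues were checked on markers. All 9 matched oocyte markers had a mean of at least 1 TPM at every oocyte stage. The same held in embryos of 0, 2 and 4 hpf, so presence alone does not tell oocytes from embryos. Their sum was at least 2908 TPM in every oocyte library and at most 1399 TPM in every wild-type embryo library. All 10 markers of zygotic embryo cells rose between 0 and 6 hpf. Markers of ovarian follicle cells and of blood were also present in the oocyte libraries and were highest at stage IV, as given beside the oocyte results. P-values measure only the spread between these libraries, and each table was tested on its own because the tables were normalised separately.

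The targeted gene was checked first. znf281b was at 219.4, 268.8 and 266.6 TPM in pCas13d alone and at 149.1, 146.6 and 171.3 TPM in znf281b KD. Every knockdown library was below every control library, with 251.6 ± 27.9 TPM (SD, n = 3) in the controls and 155.7 ± 13.6 TPM (SD, n = 3) in the knockdown. Its paralogue znf281a was also lower in the knockdown, at 8.93, 9.87 and 17.7 TPM in the controls and 6.10, 7.25 and 6.85 TPM in the knockdown.

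Of the transcription factor pair, only nfe2l2b differed between the knockdown groups by more than their spread. It was at 5.44, 5.97 and 6.67 TPM in pCas13d alone and at 30.98, 31.57 and 43.38 TPM in znf281b KD. The groups stood far apart, and the third knockdown library was the highest. The means were 6.03 ± 0.62 TPM and 35.3 ± 7.00 TPM (SD, n = 3 each), a ratio of 5.86 and a log2 difference of 2.36 on the log2(TPM + 1) scale used for all differences here. Ranked from the highest to the lowest difference among 15068 genes, it was the fifth, and leaving out any 1 library gave 2.20 to 2.44. nfe2l2a, the paralogue with the main activator role, was at 0.72, 0.77 and 0.28 TPM in the controls and 0.68, 0.62 and 1.08 TPM in the knockdown. Its groups overlapped, and it passed the minimum of 1 TPM in too few libraries to enter the knockdown fit.

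Among the enzyme genes, hmox1a stood apart in the knockdown and the other members of this kind did not. hmox1a encodes haem oxygenase, which opens haem to biliverdin, carbon monoxide and iron. It was at 2.04, 1.45 and 2.90 TPM in the controls and 9.34, 11.06 and 12.68 TPM in the knockdown. Each knockdown library was above each control library, with 2.13 ± 0.73 TPM against 11.0 ± 1.67 TPM (SD, n = 3 each). The ratio of means was 5.18 and the log2 difference 1.96, from 1.80 to 2.13 when any 1 library was left out. nqo1, which encodes a quinone reductase and is a widely used Nrf2 reporter, was at 9.93, 9.93 and 10.31 TPM in the controls and 7.45, 11.41 and 10.0 TPM in the knockdown. These groups overlapped, with a log2 difference of -0.08.

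gclc and gclm encode the catalytic and modifier subunits of glutamate-cysteine ligase, the first and rate-limiting enzyme of glutathione synthesis. gclc was at 190.8, 221.9 and 232.2 TPM in the controls and 205.4, 197.5 and 198.4 TPM in the knockdown. gclm was at 181.6, 158.6 and 153.7 TPM in the controls and 154.6, 166.6 and 155.6 TPM in the knockdown. Both were the most abundant members in every knockdown library, and in both the groups overlapped, with log2 differences of -0.10 and -0.05. The sensor genes were as close: keap1a was at 3.61, 4.75 and 3.23 TPM in the controls and 4.32, 4.76 and 4.18 TPM in the knockdown. keap1b was at 21.2, 25.5 and 20.9 TPM in the controls and 23.8, 26.9 and 21.7 TPM in the knockdown. Their log2 differences of 0.17 and 0.10 compare with a median of 0.09 over all genes. In all, 2 of the 8 members had groups that did not overlap, beside 35.0% of all genes tested, and since this contrast chose the members nothing is read from that count.

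**Figure D1:**
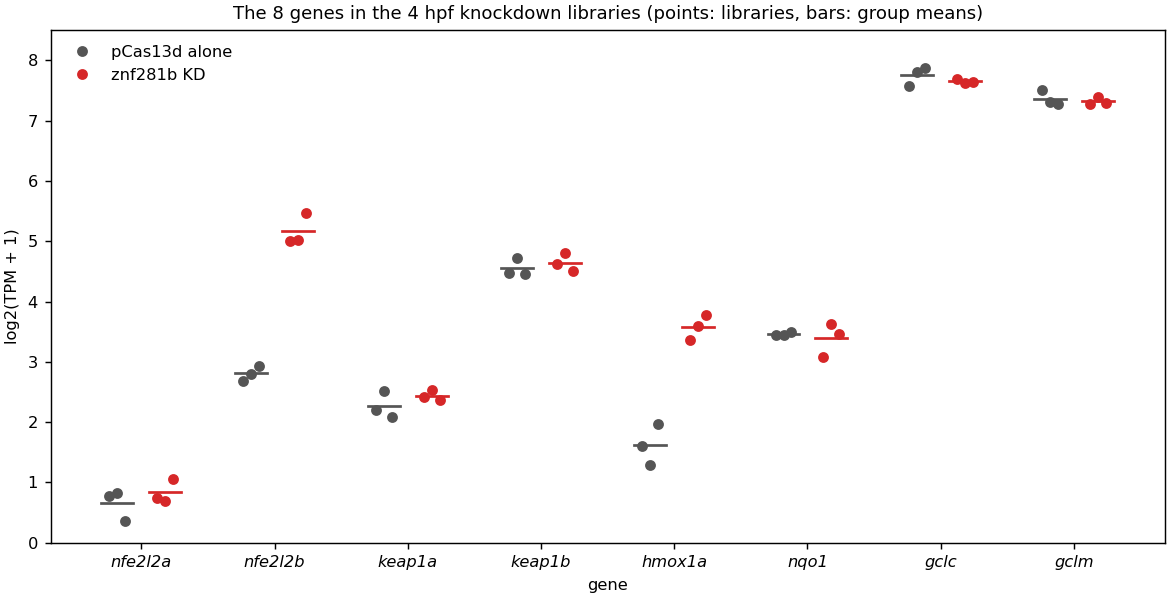
Level of each of the 8 genes in the knockdown table, as log2(TPM + 1), with 1 point a library and a bar at each group's mean (grey for pCas13d alone, red for znf281b KD, n = 3 each). nfe2l2b and hmox1a have separate groups, at 5.44 to 6.67 against 30.98 to 43.38 TPM and at 1.45 to 2.90 against 9.34 to 12.68 TPM, while the other 6 genes overlap.

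Genes that lie next to these members were examined because the sources do not give whether counting used strand. In the order of genes on assembly GRCz12tu, which is not the authors' build, nfe2l2b overlaps cycsb, a cytochrome c gene. cycsb was at 183.3, 159.9 and 174.9 TPM in the controls and 183.1, 182.5 and 178.9 TPM in the knockdown. The flanking mtx2 was at 17.4, 14.0 and 18.1 TPM and at 18.4, 19.9 and 16.0 TPM. Both neighbours had overlapping groups, as did mcm5 beside hmox1a (171.7 to 197.1 TPM in the controls and 181.5 to 198.4 TPM in the knockdown). The other neighbour of hmox1a, foxred2, was at 5.89, 5.91 and 7.40 TPM in the controls and 8.33, 7.60 and 7.46 TPM in the knockdown, a separation that is small beside that of hmox1a. nfe2l2a overlaps hnrnpa3 there, at 2.05, 1.42 and 3.01 TPM in the controls and 1.17, 0.94 and 0.85 TPM in the knockdown, so the low values of nfe2l2a carry that limit too. Beside gclc, whose own groups overlapped, eloal was at 63.2, 79.2 and 37.5 TPM in the controls and 143.7, 149.98 and 149.9 TPM in the knockdown, the widest separation of any abundant neighbour listed. In wild-type embryos eloal was at 47.98 to 86.1 TPM at 4 hpf and 1.77 to 2.59 TPM at 6 hpf. The other neighbour elovl5 was at 5.34 to 8.78 TPM and 0.84 to 1.38 TPM. Both were lower in the interval in which gclc was lower, but 55.8% of all genes fell in it. Beside nfe2l2b, which was also lower, mtx2 went from 6.67 to 9.24 TPM down to 3.50 to 4.35 TPM. The overlapping cycsb went the other way, from 69.98 to 76.08 TPM up to 158.85 to 176.41 TPM.

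The other genes of the pathway were taken from 8 lists (118 genes matched), and 93 of them were tested in the knockdown. With limma and Benjamini-Hochberg adjustment over all genes tested, 8 rose and 2 fell, or 8.6% and 2.2% of the list, beside 6.32% and 3.05% of all genes. The median difference was 0.05, beside 0.09 over all genes. With median-of-ratios scaling 4 rose and 2 fell, beside 4.80% and 3.94% of all genes. The count of rises was 3, 8 and 10 without control libraries 1, 2 and 3 in turn, where 1.96%, 11.2% and 5.79% of all genes rose. It was 2 without any 1 of the 3 knockdown libraries. Without knockdown libraries 1, 2 and 3 in turn, 1.13%, 0.942% and 2.04% of all genes rose, beside 6.32% with all libraries. sesn1, a sestrin that is a p53 target and helps to restore peroxiredoxins, rose from 93.6 ± 9.23 to 361.5 ± 32.8 TPM (SD, n = 3 each), a log2 difference of 1.94 (SE 0.11, adjusted p = 0.000316). It was called without each of the 6 libraries in turn. txnipa, a thioredoxin-binding arrestin, rose by 1.43 (SE 0.34, adjusted p = 0.0366) and gsta.1, a glutathione S-transferase, fell by 1.18 (SE 0.21, adjusted p = 0.0150). These calls held in 2 and 3 of the 6 leave-outs.

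By role, 0 of 9 tested genes of Nrf2 turnover, 0 of 15 of haem and iron handling and 0 of 8 of NADPH supply passed the test in the knockdown. Of 11 other oxidative stress response genes 4 rose (sesn1, sesn3, park7 and akr1b1), of 13 of the thioredoxin and peroxiredoxin list 2 rose (txnipa and prdx2), and of 3 superoxide dismutase and catalase genes 1 rose (sod1). Of 7 partners and repressors of Nrf2 1 fell, the small Maf gene maff. These genes are named as all calls of their lists, after their values were seen. Of these rises only that of sesn1 was still called when any 1 knockdown library was left out. The call of maff was lost without the second and without the third knockdown library. Over all 93 pathway genes, 26 had an unadjusted p under 0.05, beside 4145 of all 15068 genes, a similar share. Among 27 genes of glutathione synthesis and use, gstp1 rose and gsta.1 fell. gstp1, named after its values were seen, went from 238.1 ± 56.1 to 485.5 ± 25.6 TPM (SD, n = 3 each; log2 1.05, adjusted p = 0.00917) and was called in 6 of 6 leave-outs, with reads that could be split with related glutathione transferase genes. A pair of context lists stood beside these. Of 12 tested p53 response genes, 7 rose and 1 fell, and their summed level was 3593 to 4016 TPM in the controls and 4629 to 5213 TPM in the knockdown. Of 17 heat shock and integrated stress response genes, 1 rose and 2 fell, with sums of 2064 to 2468 TPM and 2048 to 2200 TPM. Of 9 tested zygotic embryo markers, 1 rose and 4 fell. The sums of the 10 matched were 1231 to 1736 TPM in the controls and 1601 to 1776 TPM in the knockdown, which overlapped. Of 9 oocyte markers, 1 rose and 0 fell, with sums of 789 to 900 TPM and 1065 to 1089 TPM. The part of these groups in the values of nfe2l2b and hmox1a was not tested.

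In wild-type embryos, the members differed in level and in course. The glutathione synthesis pair was the most abundant from 0 to 4 hpf, and nqo1 reached their level at 6 hpf. The factor and sensor genes and hmox1a stayed at or below 4.06 TPM in every embryo library. No member was called between 0 and 2 hpf by limma, and 0 of the 7 tested had an unadjusted p under 0.05. The libraries of 0 and 2 hpf were apart in 1 of the 8, keap1a, beside 13.8% of all genes. Over all genes 0.0122% were called in that interval, with 625 of 16328 at an unadjusted p under 0.05.

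**Figure D2:**
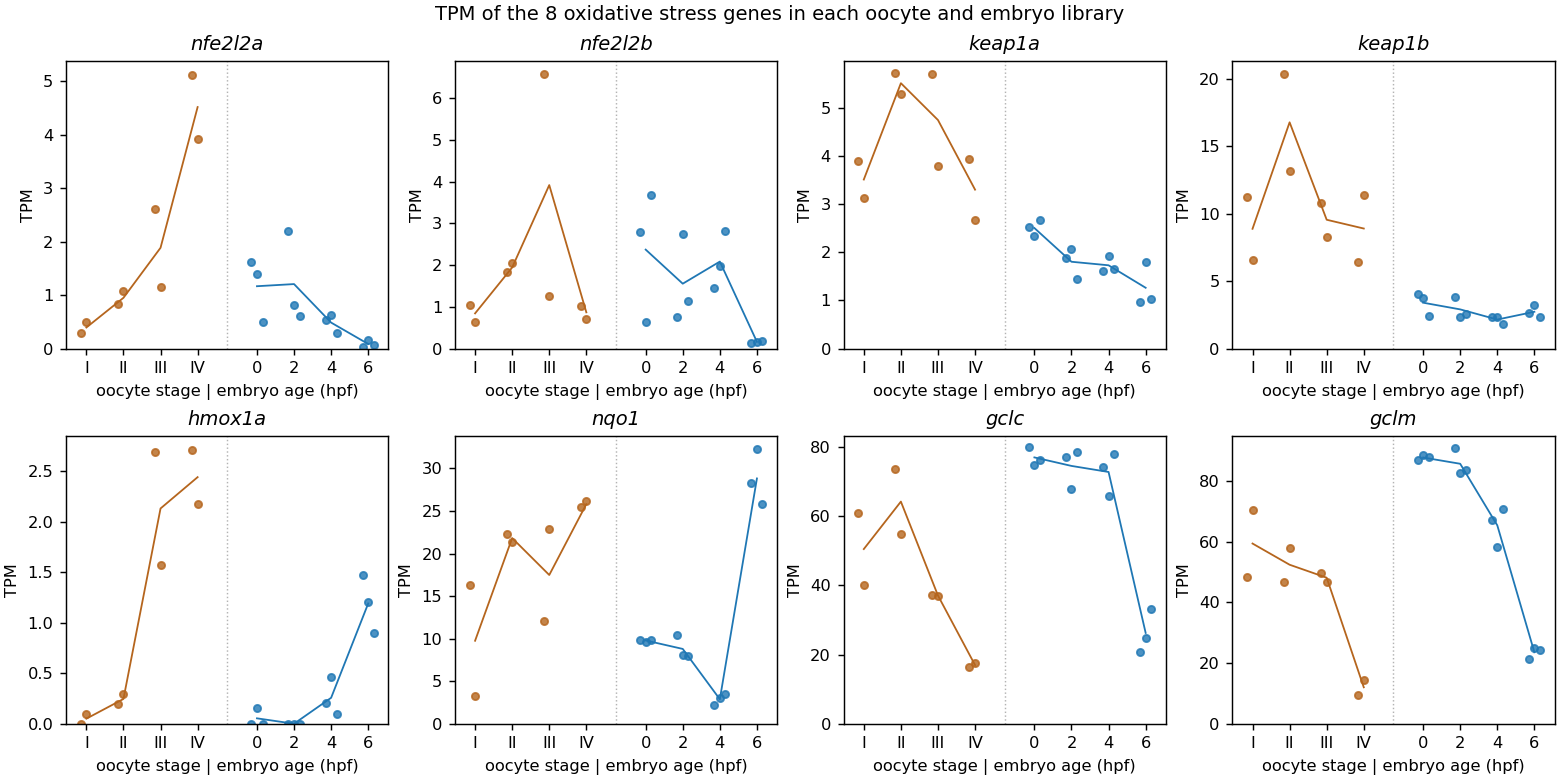
TPM of each gene in every oocyte library (brown, stages I to IV, n = 2) and every wild-type embryo library (blue, 0 to 6 hpf, n = 3), with lines through the group means. The dotted line separates tables that were normalised separately. nqo1 has its lowest embryo values at 4 hpf (2.17 to 3.46 TPM) and its highest at 6 hpf (25.8 to 32.3 TPM), while gclc and gclm are lowest at 6 hpf.

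nqo1 was at 9.86, 9.63 and 9.86 TPM at 0 hpf and 10.37, 8.08 and 7.92 TPM at 2 hpf. It was at 2.17, 2.99 and 3.46 TPM at 4 hpf and 28.4, 32.3 and 25.8 TPM at 6 hpf. The 4 hpf libraries were below all others and the 6 hpf libraries above all others. nqo1 fell by 1.34 from 2 to 4 hpf (log2, SE 0.15, adjusted p = 9.84e-06) and rose by 2.95 from 4 to 6 hpf (SE 0.15, adjusted p = 2.83e-09), a ratio of means of 10.0. From 0 to 6 hpf it rose by 1.46 (SE 0.15, adjusted p = 9.15e-07), and it was the only tested member that rose in any embryo interval.

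The glutathione synthesis pair took another course. gclc was at 79.98, 74.71 and 76.35 TPM at 0 hpf, 77.22, 67.82 and 78.62 TPM at 2 hpf, and 74.37, 65.99 and 78.05 TPM at 4 hpf. At 6 hpf it was at 20.6, 24.9 and 33.3 TPM. The first 3 times overlapped and the 6 hpf libraries lay below them, with a fall of 1.46 from 4 to 6 hpf (log2, SE 0.14, adjusted p = 6.90e-07). gclm was at 86.79, 88.44 and 88.01 TPM at 0 hpf, 90.72, 82.59 and 83.73 TPM at 2 hpf, and 67.13, 58.26 and 70.79 TPM at 4 hpf. At 6 hpf it was at 21.4, 24.8 and 24.4 TPM. gclm fell in both later intervals, by 0.39 from 2 to 4 hpf (SE 0.09, adjusted p = 0.00278) and by 1.43 from 4 to 6 hpf (SE 0.09, adjusted p = 1.71e-08).

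hmox1a was listed at 0, 0.16 and 0 TPM at 0 hpf and at 0 in all 3 libraries at 2 hpf. It was at 0.21, 0.46 and 0.10 TPM at 4 hpf and 1.47, 1.2 and 0.90 TPM at 6 hpf. The 6 hpf libraries were above all others, but with at least 1 TPM in only 2 libraries the gene did not enter the fit. Its log2 difference from 4 to 6 hpf was 0.80, and with no minimum level the adjusted p was 0.000113.

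nfe2l2b was at 2.79, 0.64 and 3.69 TPM at 0 hpf, 0.77, 2.75 and 1.15 TPM at 2 hpf, and 1.46, 1.97 and 2.83 TPM at 4 hpf. At 6 hpf it was at 0.14, 0.17 and 0.18 TPM. The first 3 times overlapped with a wide spread between libraries, and the 6 hpf libraries were below all others. The fall from 4 to 6 hpf was 1.38 (log2, SE 0.35, adjusted p = 0.00307). nfe2l2a was at 1.61, 1.40 and 0.49 TPM at 0 hpf and 2.20, 0.81 and 0.61 TPM at 2 hpf. It was at 0.53, 0.63 and 0.30 TPM at 4 hpf and 0.03, 0.17 and 0.06 TPM at 6 hpf. Its lowest values were at 6 hpf, and it fell by 0.96 from 0 to 6 hpf (SE 0.26, adjusted p = 0.00324) while neither later interval alone passed the test (-0.51 and -0.45, adjusted p = 0.0954 and 0.124). With a pseudocount of 0.1 the interval from 4 to 6 hpf was called (-1.68, adjusted p = 0.0108). nfe2l2a reached 1 TPM only in libraries of 0 and 2 hpf, so it entered the fit only through times where it was higher. The same limit holds for nfe2l2b, which reached 1 TPM only in libraries of 0, 2 and 4 hpf.

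Of the sensor genes, keap1a fell over the series and keap1b was not called. keap1a was at 2.52, 2.33 and 2.66 TPM at 0 hpf, 1.89, 2.07 and 1.45 TPM at 2 hpf, and 1.61, 1.92 and 1.66 TPM at 4 hpf. At 6 hpf it was at 0.96, 1.79 and 1.04 TPM, with a ratio of means of 0.505 from 0 to 6 hpf and a fall of 0.65 (log2, SE 0.16, adjusted p = 0.00185). keap1b was at 4.06, 3.72 and 2.44 TPM at 0 hpf, 3.83, 2.31 and 2.59 TPM at 2 hpf, and 2.33, 2.33 and 1.81 TPM at 4 hpf. At 6 hpf it was at 2.62, 3.22 and 2.36 TPM, and no embryo interval passed the test (0.24 from 4 to 6 hpf, adjusted p = 0.264). keap1a had no overlap between 0 and 6 hpf, and keap1b overlapped.

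**Figure D3:**
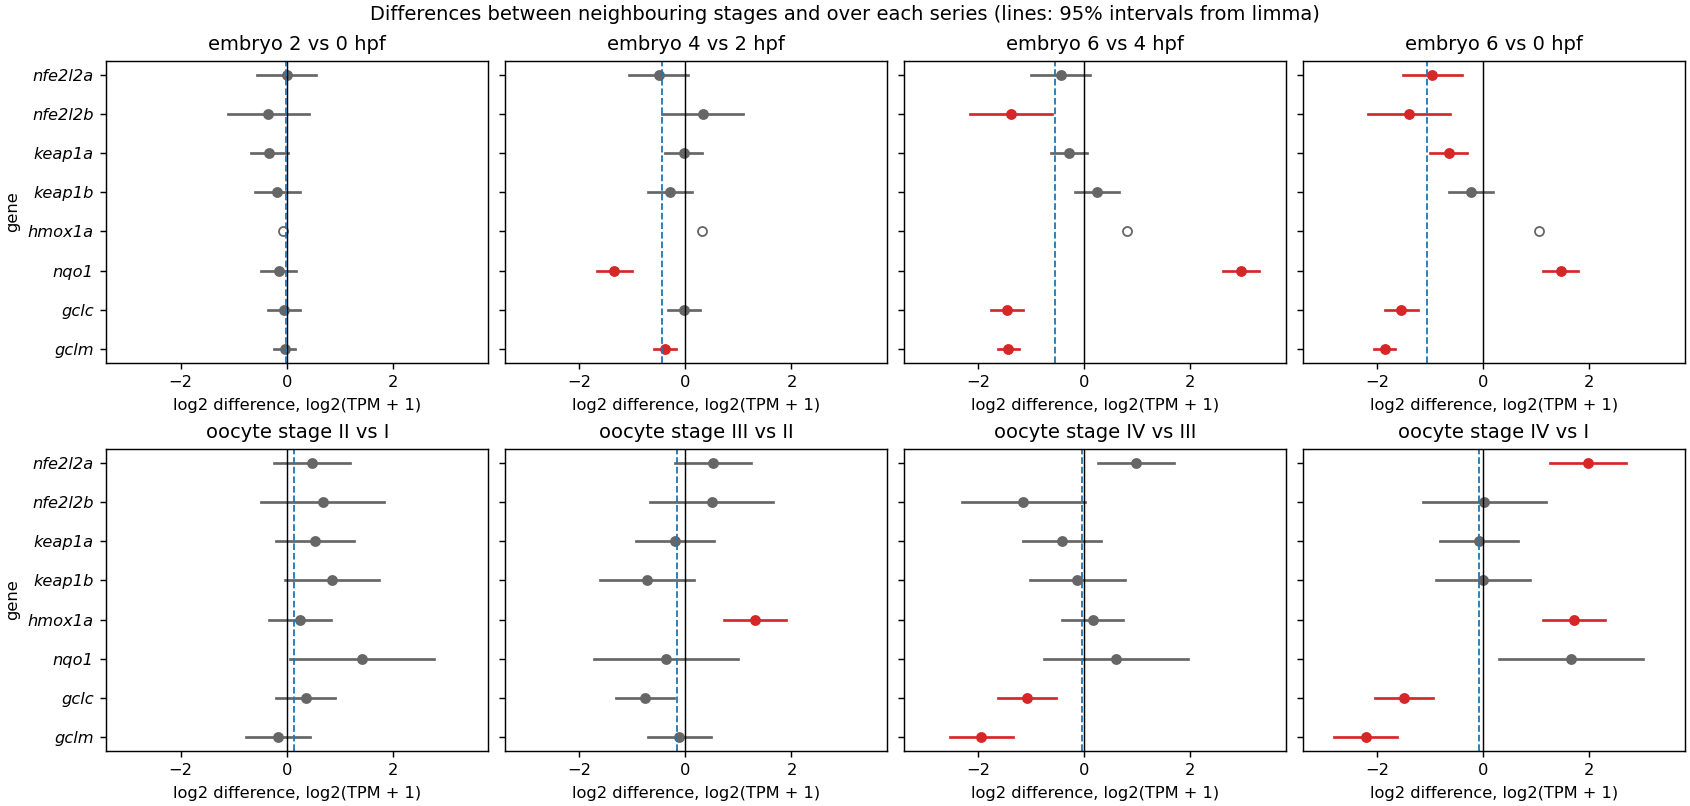
Log2 difference of each gene in each of the 8 tested comparisons of embryos and oocytes, with 95% intervals from limma (red where the adjusted p is under 0.05, grey where not, open circles without an interval where the gene was not tested). The dashed blue line is the median over all genes tested, which lies at -1.06 between 0 and 6 hpf, where nqo1 lies at 1.46 and gclm at -1.86.

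These counts stand beside large changes of the whole transcriptome. From 2 to 4 hpf 2 of the 7 tested members fell and 0 rose, where 54.7% of all genes fell and 11.0% rose. From 4 to 6 hpf 3 fell and 1 rose, where 55.8% fell and 22.8% rose. From 0 to 6 hpf 5 fell and 1 rose, where 67.2% fell and 21.9% rose. Groups did not overlap in 3, 7 and 7 of the 8 members in these intervals, beside 71.0%, 78.0% and 89.4% of all genes. From 2 to 4 hpf these counts are below the background share and in the other intervals near it, with at most 8 genes behind each, and the median difference over all genes was -0.43, -0.56 and -1.06 in these intervals. Relative to that median, nqo1 stood at 3.51 and gclc at -0.90 from 4 to 6 hpf. When libraries were rescaled by median-of-ratios size factors, which bring the all-gene medians to 0.05, 0.10 and 0.10, nqo1 was still called higher at 6 than at 4 hpf (3.89) and nfe2l2b, gclc and gclm lower (-1.22, -0.54 and -0.52). The rescaling turned gclc (0.56, adjusted p = 0.00347) and gclm (0.21, adjusted p = 0.0217) to higher at 4 than at 2 hpf. It also turned keap1a (0.35, adjusted p = 0.0478) and keap1b (0.97, adjusted p = 0.000313) to higher at 6 than at 0 hpf, and ended the call of gclc over that span (-0.02, adjusted p = 0.909).

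In growing oocytes, the glutathione synthesis pair was again lowest at the last stage sampled, where nfe2l2a and nqo1 had their highest libraries. hmox1a had its highest mean there, but its stages III and IV overlapped. gclc was at 60.98 and 40.04 TPM at stage I, 73.72 and 54.75 TPM at stage II, 37.21 and 36.92 TPM at stage III, and 16.43 and 17.48 TPM at stage IV. gclm was at 48.4 and 70.4 TPM at stage I, 46.8 and 58.0 TPM at stage II, 49.7 and 46.6 TPM at stage III, and 9.53 and 14.48 TPM at stage IV. In both genes stage IV lay below every other stage. From stage III to IV gclm fell by 1.94 (log2, SE 0.26, adjusted p = 0.00200) and gclc by 1.08 (SE 0.24, adjusted p = 0.0134). The call of gclc over that step was lost when any 1 of the 4 libraries was left out (adjusted p = 0.0504 to 0.0749). Over stages I to IV gclm fell by 2.22 (SE 0.26, adjusted p = 0.00043) and gclc by 1.49 (SE 0.24, adjusted p = 0.00178).

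hmox1a was at 0 and 0.10 TPM at stage I, 0.20 and 0.29 TPM at stage II, 2.69 and 1.57 TPM at stage III, and 2.71 and 2.17 TPM at stage IV. The 2 later stages lay above the 2 earlier ones and overlapped each other. hmox1a rose by 1.71 from stage I to IV (log2, SE 0.25, adjusted p = 0.00124). It reached 1 TPM only in libraries of stages III and IV, so it entered the fit only through the stages where it was high. The step from stage II to III was 1.31 (SE 0.25, adjusted p = 0.0429), a call that ended without any 1 of the 4 libraries (adjusted p = 0.0636 to 0.338), with no minimum level (0.0936), in a fit of those stages alone (0.0570) and with a replicate block (0.0581).

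nfe2l2a was at 0.30 and 0.49 TPM at stage I, 0.83 and 1.07 TPM at stage II, 2.61 and 1.16 TPM at stage III, and 5.12 and 3.91 TPM at stage IV. No stage overlapped the next, and nfe2l2a rose by 1.98 from stage I to IV (log2, SE 0.31, adjusted p = 0.00167). The ratio of means was 11.4, over a stage I mean of only 0.395 TPM. No stage I library reached 1 TPM, so nfe2l2a entered the fit only through later stages where it was higher. The step from stage III to IV was 0.97 (adjusted p = 0.0515), and 0.0401 without the first stage III library. nfe2l2b was at 1.05 and 0.64 TPM at stage I, 1.83 and 2.06 TPM at stage II, 6.57 and 1.27 TPM at stage III, and 1.02 and 0.72 TPM at stage IV. The stage III libraries of nfe2l2b were far apart, stages I and IV overlapped, and no step passed the test. Without the second stage III library, the step to stage IV was -2.02 (adjusted p = 0.0179), against -1.15 (adjusted p = 0.127) with it.

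nqo1 was at 16.27 and 3.23 TPM at stage I, 22.29 and 21.35 TPM at stage II, 12.1 and 22.86 TPM at stage III, and 25.48 and 26.14 TPM at stage IV. Stage I was below stages II and IV, but its 2 libraries were far apart. The difference between stages IV and I was 1.65 (log2, SE 0.59, adjusted p = 0.0510), and 2.66 (adjusted p = 0.00225) without the first stage I library. keap1a was at 3.90 and 3.12 TPM at stage I, 5.73 and 5.29 TPM at stage II, 5.70 and 3.79 TPM at stage III, and 3.93 and 2.67 TPM at stage IV. keap1b was at 11.2 and 6.55 TPM at stage I, 20.4 and 13.2 TPM at stage II, 10.8 and 8.31 TPM at stage III, and 6.42 and 11.4 TPM at stage IV. Both sensor genes had their highest mean at stage II, and neither passed the test in any step.

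Read against all genes, 0 of the 8 members were called from stage I to II, beside 0.174% of genes. At an unadjusted p under 0.05 there was 1 member, nqo1, beside 1833 of all 16067 genes. From stage II to III 1 was called, beside 2.53%. From stage III to IV 2 were called, beside 27.6%, and from stage I to IV 4 were called, beside 45.3%. Groups did not overlap in 6, 4, 5 and 5 of the 8 members in these steps, beside 41.4%, 59.5%, 70.4% and 71.5% of all genes, where groups of 2 libraries separate easily. Markers of other cells moved over the same span. The 13 ovarian follicle markers summed to 331 to 359 TPM at stage I and 321 to 338 TPM at stage II. They summed to 488 to 553 TPM at stage III and 1023 to 1089 TPM at stage IV, and 10 of the 12 tested rose from stage I to IV. A mean of at least 1 TPM was reached by 5 of them at stages I and II, 11 at stage III and 12 at stage IV. The same list summed to 292 to 316 TPM in 0 hpf embryos, so the early sums do not measure follicle cells alone. Blood and immune markers summed to 16.0 to 21.1 TPM at stage I and 175 to 540 TPM at stage IV. Of 9 oocyte markers, 7 fell from stage I to IV. Isolation also differed, since collagenase I and II were used for stages I and II, collagenase I for stage III and forceps and a needle for stage IV. Days post purge rose with stage too, from 1 to 2 at stages I and II to 8 to 10 at stage IV. The part of these in the values of hmox1a, nfe2l2a, gclc and gclm was not tested. Isolation, days post purge and stage cannot be told apart.

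Ratios within a library do not depend on how libraries are scaled. The gclc to gclm ratio was 0.878 ± 0.039 at 0 hpf and 0.870 ± 0.061 at 2 hpf, with no library above 0.939, and 1.11 ± 0.016 at 4 hpf (SD, n = 3 each), with no library below 1.103. It was 1.11 ± 0.22 at 6 hpf and ranged from 0.569 to 1.72 in oocytes. In the knockdown table it was 1.32 ± 0.24 in the controls and 1.26 ± 0.07 in the knockdown (SD, n = 3 each). The catalytic subunit's transcript was thus lower than the modifier's in all 6 libraries of 0 and 2 hpf and higher in all 3 libraries of 4 hpf.

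The keap1b to keap1a ratio had means of 1.25 to 2.27 over the embryo times and 2.04 to 3.02 over the oocyte stages. It was 5.90 ± 0.56 in pCas13d alone and 5.45 ± 0.23 in znf281b KD (SD, n = 3 each), so the paralogue keap1b exceeded keap1a in every library of the knockdown table. The nfe2l2b to nfe2l2a ratio was below 1 in both stage IV libraries (0.184 and 0.199) and above 1 in both libraries of each earlier stage. In embryos this ratio ranged from 0.35 to 9.43. It was below 1 in the second 0 hpf library (0.457) and the first 2 hpf library (0.35). The same ratio was 7.56 to 23.8 in pCas13d alone and 40.2 to 50.9 in znf281b KD, where the numerator is the value that chose the member. Its denominator nfe2l2a was at only 0.28 to 0.77 TPM and 0.62 to 1.08 TPM in these groups, which limits the ratio.

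**Figure D4:**
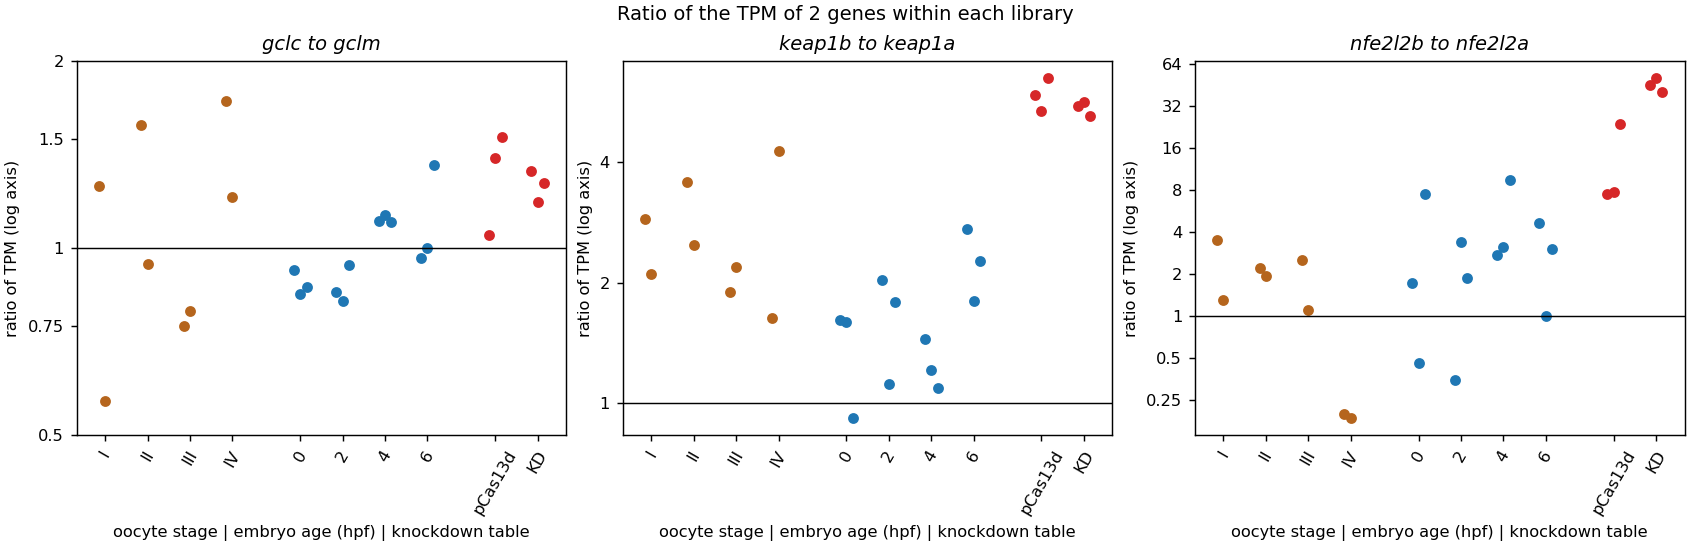
Ratio of the TPM of a pair of genes within each library, on a log axis, for gclc to gclm, keap1b to keap1a and nfe2l2b to nfe2l2a (brown for oocyte stages, blue for embryo times, red for the knockdown table). The gclc to gclm ratio is below 1 in all 0 and 2 hpf libraries and above 1 in all 4 hpf libraries, and the nfe2l2b to nfe2l2a ratio is lowest at stage IV (0.184 and 0.199).

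The controls of the knockdown were not like wild-type embryos of the same age in these tables. At 4 hpf, nfe2l2b was at 1.46 to 2.83 TPM in wild-type embryos and 5.44 to 6.67 TPM in pCas13d alone, hmox1a at 0.10 to 0.46 TPM and 1.45 to 2.90 TPM, and gclc at 65.99 to 78.05 TPM and 190.8 to 232.2 TPM. keap1b was at 1.81 to 2.33 TPM and 20.9 to 25.5 TPM. nfe2l2a overlapped, at 0.30 to 0.63 TPM and 0.28 to 0.77 TPM. Mitochondrial genes held 0.985% to 1.19% of the TPM in wild-type 4 hpf libraries and 5.88% to 6.71% in pCas13d alone. These values are set side by side with no test, since the tables differ in sequencer and normalisation. The median log2 difference between them over 13682 genes was 0.76, with r = 0.779 across genes, which are not independent replicates.

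Likeness of course over the 12 wild-type embryo libraries was measured by Pearson's r of log2(TPM + 1), as a description, since libraries of 1 time share their stage. Among the 10984 genes whose embryo mean reached 5 TPM, nfe2l2b was most like atp2b1b, a plasma membrane calcium pump gene (0.925), then fbxw5 (0.863) and inppl1b (0.855). Among the members, gclc and gclm were most like each other (0.967), nfe2l2b was most like gclc (0.757), keap1a most like gclm (0.734), keap1b most like nfe2l2a (0.683) and nqo1 most like hmox1a (0.632). hmox1a and nfe2l2a had mean levels of 0.375 and 0.737 TPM, under the minimum of 1 TPM set for a gene whose likes are named. They could still be the partner of another member, where their low values limit r.

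Among the other pathway genes, more fell than rose in TPM in embryos from 2 hpf on, a split that scaling removes or turns, and more rose than fell in oocytes. Of 95 tested, 0 were called from 0 to 2 hpf by limma. At an unadjusted p under 0.05 there were 5, beside 625 of all 16328 genes. From 2 to 4 hpf 3 rose and 63 fell (3.16% and 66.3%), beside 11.0% and 54.7% of all genes. From 4 to 6 hpf 24 rose and 56 fell (25.3% and 58.9%), beside 22.8% and 55.8%. From 0 to 6 hpf 14 rose and 64 fell (14.7% and 67.4%), beside 21.9% and 67.2%. The falls from 4 to 6 and from 0 to 6 hpf were thus near the all-gene share. The median over the pathway from 0 to 6 hpf was -1.21, beside -1.06 over all genes. With median-of-ratios scaling 20 rose and 21 fell from 2 to 4 hpf and 45 rose and 32 fell from 4 to 6 hpf. From 0 to 6 hpf 46 then rose and 40 fell. Of all genes, 26.4%, 42.7% and 44.9% rose with this scaling, and 21.3%, 35.4% and 39.2% fell. sesn3, a sestrin gene, rose from 0.18 ± 0.07 TPM at 0 hpf to 156.4 ± 9.04 TPM at 6 hpf (SD, n = 3 each; log2 7.06, adjusted p = 8.82e-10). akr1b1, an aldose reductase gene, fell by 4.56 over that span (adjusted p = 1.64e-11), and cpox, a haem synthesis gene, by 4.14 (adjusted p = 4.19e-11). With means of 0.18 and 0.21 TPM at 0 and 2 hpf, sesn3 entered the fit only through later times where it was higher.

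Within single intervals, idh1, an NADPH-producing isocitrate dehydrogenase, fell by 2.56 from 2 to 4 hpf (adjusted p = 5.23e-07), while sesn3 rose by 2.54 (adjusted p = 6.71e-05) and txnipa by 2.26 (adjusted p = 7.70e-06). From 4 to 6 hpf sesn3 rose by 4.50 (adjusted p = 1.39e-07), akr1b1 fell by 3.24 (adjusted p = 6.06e-10) and gstp1 fell by 2.85 (adjusted p = 1.42e-08). nqo1, at 2.95, thus rose in the same interval in which gstp1, another enzyme of electrophile detoxification, fell. The list that holds gstp1 went both ways there. Of its 27 tested genes of glutathione synthesis and use, 10 rose and 13 fell, beside 22.8% and 55.8% of all genes. Of the superoxide dismutase and catalase genes, 3 of 3 tested fell from 0 to 6 hpf, and of the NADPH supply genes 7 of 8 fell. These counts stand beside falls in 67.2% of all genes. Median-of-ratios scaling ended the call of sod2 (-0.33, adjusted p = 0.0517) and turned tktb (0.93), taldo1 (1.00) and idh2 (0.71) to higher at 6 than at 0 hpf.

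In oocytes, 102 other pathway genes were tested. From stage I to II 0 were called, beside 0.174% of all genes. At an unadjusted p under 0.05 there were 14 of the 102, beside 1833 of all 16067 genes. From stage II to III 3 rose and 0 fell (2.94% and 0%), beside 2% and 0.529%. From stage III to IV 23 rose and 7 fell (22.5% and 6.86%), beside 14.3% and 13.3%. The last count was 9 and 3 without the first stage III library, 7 and 2 without the second, 12 and 2 without the first stage IV library and 18 and 7 without the second. Without the second stage III library 6.02% of all genes rose over that step, against 14.3% with it. From stage I to IV 38 rose and 16 fell, or 37.3% and 15.7%, beside 22.9% and 22.4% of all genes. The pathway median was 0.42 over that span, beside -0.07. The rises were 14 of 31 genes of glutathione synthesis and use and 8 of 12 of the thioredoxin and peroxiredoxin list, while 0 of 8 NADPH supply genes rose and 2 fell. txnipa rose from 5.29 ± 1.52 to 214.3 ± 86.5 TPM (SD, n = 2 each; log2 5.06, adjusted p = 4.49e-05). slc7a11, the cystine importer that feeds glutathione synthesis, rose from 0.11 ± 0.02 to 34.0 ± 16.0 TPM (log2 4.91, adjusted p = 7.74e-05), in the span in which gclc and gclm fell. slc40a1, the iron exporter ferroportin, rose by 4.10 (adjusted p = 4.49e-05). At stage I slc7a11 and slc40a1 averaged only 0.11 and 0.45 TPM, so they entered the fit only through later stages where they were higher.

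From stage II to III the 3 rises were slc7a11 (2.43, adjusted p = 0.0201), txnipa (1.71, adjusted p = 0.0434) and gstk1 (1.51, adjusted p = 0.0477). Each of these calls was lost when any 1 of the 4 libraries was left out. From stage III to IV slc40a1 rose by 3.26 (adjusted p = 0.000370), txnipa rose by 2.35 (adjusted p = 0.00245) and gsta.1 fell by 2.07 (adjusted p = 0.00222). Of the follicle markers 10 of 12 and of the blood and immune markers 7 of 10 rose from stage I to IV, and their part in these counts was not tested.

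**Figure D5:**
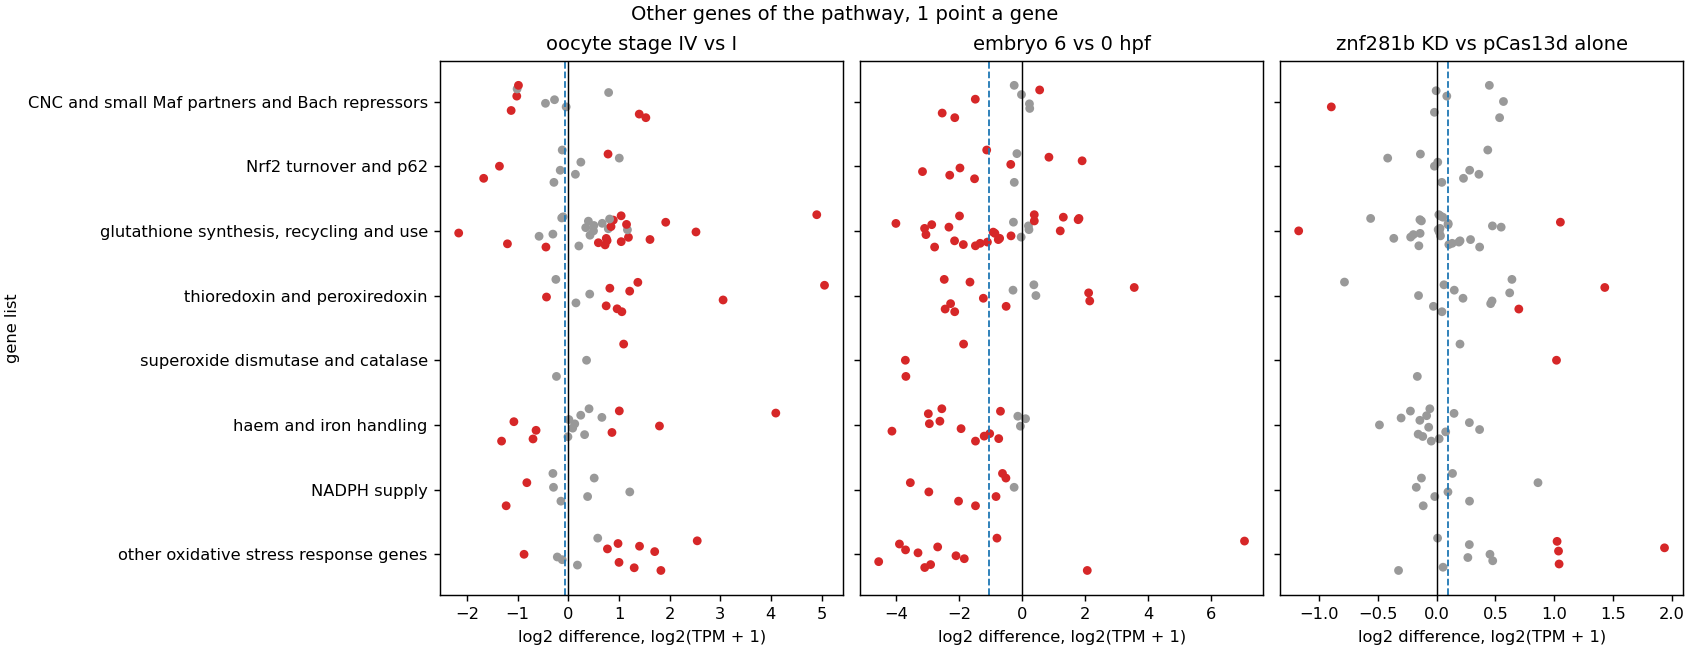
Log2 difference of the other genes of the pathway, 1 point a gene, by list, from oocyte stage I to IV, from 0 to 6 hpf and in the knockdown (red where the adjusted p is under 0.05, grey where not, dashed blue line at the median over all genes tested). Rises outnumber falls in oocytes (38 and 16 of 102, beside 22.9% and 22.4% of all genes). Falls outnumber rises in embryos on the TPM scale plotted (64 and 14 of 95, beside 67.2% and 21.9% of all genes). With median-of-ratios scaling the embryo counts are 40 and 46. In the knockdown 10 of 93 genes are red, with sesn1 the highest at 1.94, where 6.32% of all genes rose and 3.05% fell.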

How the data were processed

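The authors deposited TPM per gene for oocytes, embryos and the knockdown in 3 tables. The submitters' processing notes name STAR 2.7.3a, RSEM and danRer11, while the annotation release and the use of strand in counting are not given there. Libraries of oocytes and embryos, per the labels' protocols, were stranded and depleted of ribosomal RNA, and the knockdown libraries were run on a G4 sequencer. Library depth cannot be had from TPM and is unknown. Groups and replicate numbers came from the sample titles, each column matched 1 sample (0 columns left over), and genes were joined by identifier.

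Genes that reached 1 TPM in 3 or more libraries (2 or more of oocytes) entered a two-sided limma test (limma 3.58.1, R 4.3.3) of log2(TPM + 1), each table fitted once with all its groups, with a mean trend and Benjamini-Hochberg adjustment over all genes tested. Calls needed an adjusted p under 0.05 and no minimum fold. Log2 differences understate the change of low genes. The fit was tested on simulated data. The members and the gene lists were chosen with earlier results of these data known. All members are named, and of the other pathway genes the 3 largest called changes per comparison whose higher group averaged 5 TPM or more. Same-numbered libraries of 4 and 6 hpf deviated together (r of 0.32, 0.13 and 0.18). So did those of 0 and 4 hpf (0.21, 0.16 and 0.20) and of 0 and 6 hpf (0.09, 0.09 and 0.14). Those of 2 hpf had r of -0.20 to -0.08 with the same numbers at other times. Libraries 1, 2 and 3 of 2 hpf instead deviated with libraries 2, 3 and 1 of each other time (r of 0.09 to 0.32). The numbers may therefore pair libraries of 0, 4 and 6 hpf, and those of 2 hpf under shifted numbers. A replicate block by the printed numbers changed no member's call in embryos. That block does not follow the shifted numbers of 2 hpf, so it cannot settle what such pairing would do to the embryo calls. Alternatives were a pseudocount of 0.1, no minimum level, median-of-ratios scaling, fits of 2 groups, a replicate block and leaving out each library. Of the pathway genes listed, 118 of 126 matched by name. Gene order came from a RefSeq annotation of GRCz12tu, and no coordinates are given because that is not the authors' build.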

Additional observations from a re-analysis of the deposited data

How the results depend on the processing

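The members' calls in embryos and oocytes mostly kept their direction and side of the threshold, in 307 values with 1 library left out against 8 that lost a call and 5 that gained one, and in 59 with a replicate block, which ended 1 call, that of hmox1a from stage II to III (adjusted p = 0.0581). Same-numbered oocyte libraries of stages I and II deviated together (r of 0.44, and -0.44 between other numbers). For the other pairs of oocyte stages r between same numbers was -0.11 to 0.075. With 2 libraries a stage, these values cannot settle whether the numbers pair oocyte libraries. Same-numbered libraries of the knockdown had r of -0.02 to 0.13, which cannot settle whether the numbers pair them. With the block, 1432 genes were called in the knockdown against 1411 without it. Median-of-ratios scaling turned the sign of gclc (0.56) and gclm (0.21) from 2 to 4 hpf and of keap1a (0.35) and keap1b (0.97) from 0 to 6 hpf. Of these, gclc (-0.03, adjusted p = 0.840 by limma) and keap1b (-0.23, adjusted p = 0.276) had not been called on the TPM scale. Median-of-ratios scaling sets the typical gene to no change, while TPM sets every library to the same total. Which scale is nearer to the amount of RNA was not tested.

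Counts over all genes moved more. From 0 to 2 hpf 2 genes were called, 4 with a pseudocount of 0.1, 5 with no minimum level, 4 in a fit of those times alone and 1 to 3 without 1 library. From stage I to II 28 were called, 0 with no minimum level (2256 at an unadjusted p under 0.05), 3 with scaling, 0 in a fit of those stages alone (1459 unadjusted) and 0 to 60 without 1 library. From stage II to III 407 were called, 127 with no minimum level and 8 to 122 without 1 library, and from stage III to IV 4438, or 1822 to 3445 without 1 library. In the knockdown 1411 were called, 531 with no minimum level and 297 to 2365 without 1 library. With no minimum level more genes entered a fit, and a left-out library left fewer samples. The cause of these moves was not tested. In the knockdown, nfe2l2b and hmox1a differed by 2.36 and 1.96, by 2.52 and 2.36 with a pseudocount of 0.1, and by 2.25 and 1.87 with scaling. Depth is unknown, and members below 1 TPM are limited by it.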
